A study of Mus musculus with 8 samples.

Results

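The nuclear genes for subunits of respiratory complex I were followed in fasted white quadriceps muscle of mice that lack the acyl-CoA thioesterase Acot2 in muscle and of floxed controls. Genes were taken by symbol from the deposited table, namely every symbol made of Nduf, then one of a, b, c, s, v or ab, and a number, together with Ndufa4l2. This gave 37 of 54091 gene rows, and all 37 were abundant enough to be tested. Of these, 7 encode core subunits and 28 encode accessory subunits, while Ndufa4 and Ndufa4l2 carry the name without being subunits of the purified complex. Ndufb4 was not analysed here.

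Complex I, or NADH dehydrogenase, passes electrons from NADH to ubiquinone and pumps protons across the inner mitochondrial membrane. Its core subunits are conserved from bacteria and carry out catalysis. They form the N module, which oxidizes NADH, the Q module, which reduces ubiquinone, and a membrane arm whose core subunits are encoded by the mitochondrial genome. The accessory subunits surround the core and are needed for assembly and stability. In muscle the complex takes up NADH from fatty acid oxidation, the pathway in which the title of the series places Acot2.

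RNA was sequenced from 4 muscle knockout mice (knockout 5 to 8), labelled CKM Cre with Acot2 ko in muscle, and from 4 controls (floxed control 1 to 4), labelled Loxp/Loxp. The Ckm promoter, of the muscle creatine kinase gene, is active in muscle fibres, so other cells of the tissue keep Acot2. All 8 mice were males of 11 to 14 weeks, fasted for 14 h overnight, and each library has its own mouse number. A group with Cre and no floxed allele was not analysed here, so Cre itself and loss of Acot2 cannot be told apart.

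Recovered reads per library ranged from 28659632 to 40977866. Acot2 had 413, 312, 600 and 543 normalized counts (reads divided by the size factor of the library) in knockout 5 to 8, against 1675, 3927, 2492 and 1530 in floxed controls 1 to 4. The groups did not overlap, and the knockout mean was 19.4% of the control mean. The difference was -2.30 on the log2 scale (SE 0.287, limma adjusted p = 0.087; exact two-sided permutation p = 0.0286, the smallest that 4 against 4 libraries allow). The tissue label held in every library: Myh4, the myosin of glycolytic fibres, was between 1397870 and 2597330 normalized counts in knockouts and between 2093810 and 2917700 in floxed controls, and Myh7, the myosin of slow fibres, between 13.3 and 303 in knockouts and between 12.2 and 83.6 in floxed controls. Knockout 5 and floxed control 4 stood apart from the rest of their groups for respiratory chain genes, and the results are given below with that in view.

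Promoter sequences from RefSeq (GRCm38.p6) were matched for 32 of the 37 genes, in 34 windows. Each ran from 250 bases before to 50 bases after the RefSeq gene start, which can differ from the GENCODE gene positions given below. They had a median GC content of 59.0% and 19.5 CpG per window, against 52.7% and 7.00 over all 32851 windows. Motifs of 4 factors known to act on respiratory chain genes were searched on both strands. Whether they have a part in how the genes vary together across the libraries was not tested. The YY1 letters AAGATGGC were in 7 of 34 windows, those of Ndufa3, Ndufa9, Ndufb8, Ndufc1, Ndufs4, Ndufs6 and Ndufs7, or 20.6%, against 2.75% of all windows. In all 7 the motif lay after the gene start on the gene's own strand, and its ATG was a start codon annotated by GENCODE. Of the 903 windows with the motif in the whole table, 178 had it at an annotated start codon (19.7%). The stretches around it are shown for the 4 genes with the smallest p in the expression test, with the motif in capitals.
Ndufb8, chr19:44555393-44555422, minus strand: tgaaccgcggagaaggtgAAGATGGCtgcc
Ndufc1, chr3:51408915-51408944, minus strand: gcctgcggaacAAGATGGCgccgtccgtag
Ndufs7, chr10:80249462-80249491, plus strand: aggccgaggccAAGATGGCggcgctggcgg
Ndufs4, chr13:114388045-114388074, minus strand: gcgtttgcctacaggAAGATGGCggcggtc

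The NRF1 letters GCGCATGC were in 3 member windows, those of Ndufa6, Ndufa8 and Ndufa11 (8.82%), against 2.71% of all windows. The ETS letters CCGGAAG, shared by GABPA and related factors, were in 4, those of Ndufb6, Ndufb7, Ndufs3 and Ndufs8 (11.8%), against 8.86% of all windows. The ERR letters AAGGTCA were in those of Ndufb2 and Ndufs5 (5.88%), against 4.72% of all windows. No member window held the motifs of more than 1 of these factors. The 150 bases before the RefSeq gene start are shown for Ndufa8 and Ndufb7. In Ndufa8 the NRF1 letters (capitals, on the opposite strand) end at that start, and in Ndufb7 the ETS letters (capitals) begin 20 bases before it. In GENCODE both genes start further upstream, Ndufa8 at chr2:36049406 and Ndufb7 at chr8:83566671. By those starts both motifs lie inside the genes.
Ndufa8, chr2:36049339-36049488, minus strand: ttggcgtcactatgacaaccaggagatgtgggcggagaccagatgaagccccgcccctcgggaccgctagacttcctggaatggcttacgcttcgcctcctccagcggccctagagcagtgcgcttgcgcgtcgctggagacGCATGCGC
Ndufb7, chr8:83566608-83566757, plus strand: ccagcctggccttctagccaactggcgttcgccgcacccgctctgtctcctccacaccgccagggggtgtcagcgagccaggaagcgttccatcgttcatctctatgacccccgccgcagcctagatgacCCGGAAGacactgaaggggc

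Every one of the 35 subunit genes had a higher mean in knockout than in floxed control muscle, by small amounts and with overlap between the groups in each gene. The median log2 difference was 0.25, between 0.096 for Ndufa3 and 0.42 for Ndufb5, which is 1.07-fold and 1.34-fold of the control mean. No gene of the 37 passed an adjusted p of 0.05 by limma, and neither did any of the 13141 tested genes (0%), of which 810 had an unadjusted p under 0.05. The voom method on recovered reads called none of the 37 either and gave 9 of them, and 756 of all tested genes, at an unadjusted p under 0.05. At that unadjusted level in limma, 8 of the 37 were higher in the knockout and none lower, while 2.47% of all tested genes were higher at that level. A difference above 0 was found in 36 of the 37 and in 50.6% of all tested genes, whose median was 0.0031. In none of the 37 did the groups fail to overlap, whereas 1.13% of all tested genes had every knockout above every control.

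The subunit genes shared the low end of the order of the libraries, while the highest library was knockout 6 in 18 of the 35, knockout 7 in 10 and knockout 8 in 7. Their mean log2 level was 11.24, 11.73, 11.69 and 11.69 in knockout 5 to 8 and 11.42, 11.44, 11.44 and 11.08 in floxed controls 1 to 4. Floxed control 4 was the lowest control in 35 of 35 genes and knockout 5 the lowest knockout in 35 of 35. Knockout 5 lay above floxed control 4 and below the other 3 controls in 97.1% of the genes, against 8.85% of all tested genes. The exception was Ndufab1, where knockout 5 was the lowest of all 8. Knockouts 6, 7 and 8, which no label sets apart from knockout 5 and which were singled out after their values were seen, were each above every control in 33 of the 35 subunit genes and in 7.90% of all tested genes. Without knockout 5, 32 of the 37 genes had an unadjusted p under 0.05, 34 had groups that did not overlap and the median difference of the 37 was 0.36, against 0.24 with all libraries. In that setting 2200 of all 13141 tested genes also had such a p. Without floxed control 4 the median was 0.15, and 0 of the 37 genes and 367 of all tested genes reached that p. It was 0 of the 37 as well without knockout 6, 7 or 8, and 5 without floxed control 1. Over all tested genes the count was 422, 658 and 456 without knockout 6, 7 and 8, and 518 without floxed control 1.

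**Figure D1:**
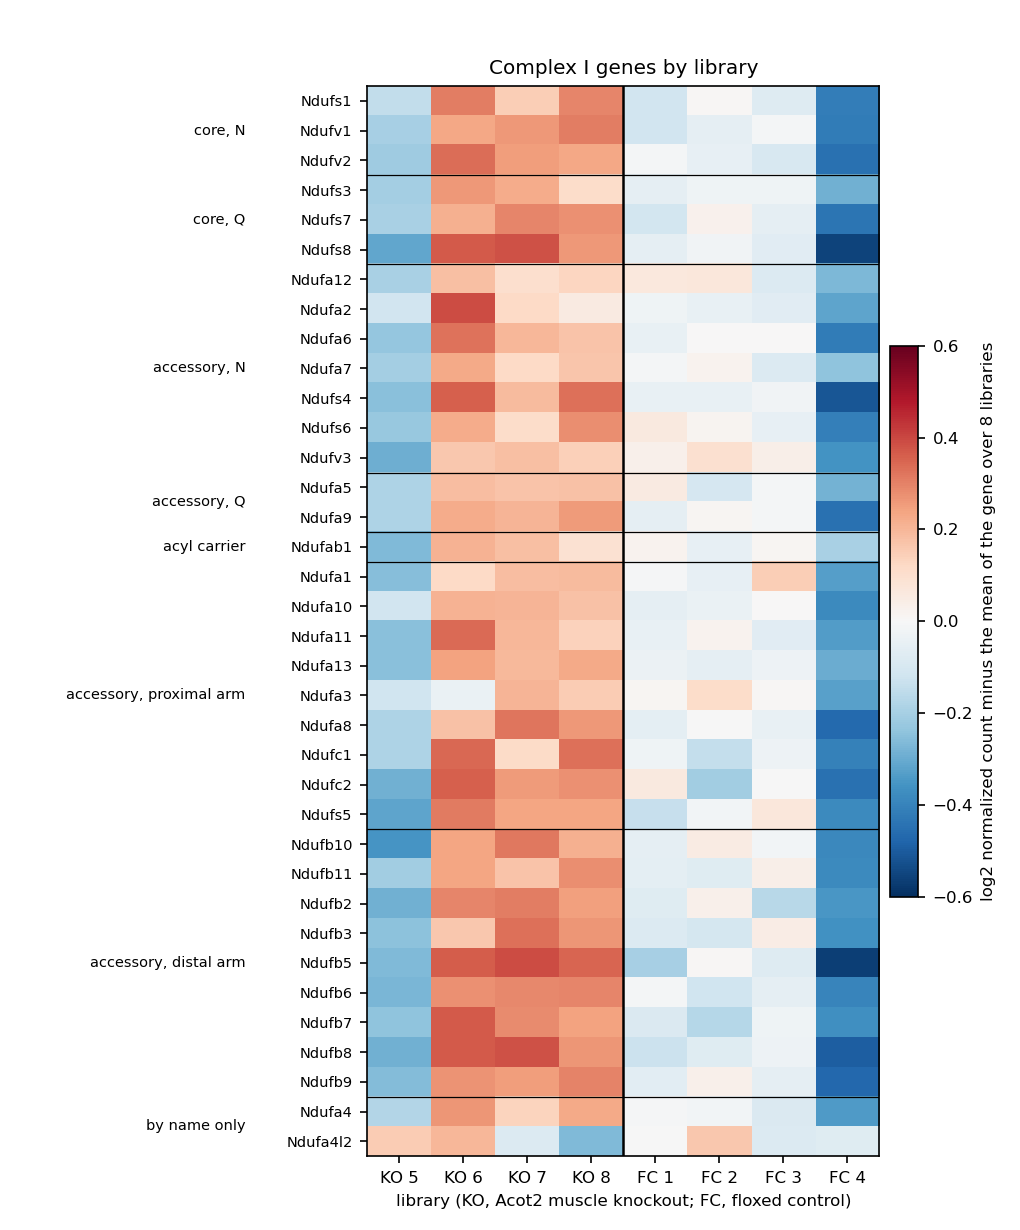
Colour gives the log2 normalized count of each gene minus its mean over the 8 libraries, with the 4 knockout (KO) libraries left of the 4 floxed control (FC) libraries and genes grouped by subunit class. The columns of KO 5 and FC 4 are blue for nearly all subunits and those of KO 6 to KO 8 are red for nearly all, while Ndufa4l2 in the bottom row shows another pattern.

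Most of the variation of the subunit genes was held in common. The mean over the 35 genes had an SD of 0.23 (log2) across the 8 libraries, and 90.2% of the squared deviation of the genes from their own means was in that shared mean. With the shared mean removed, the median SD of a gene was 0.072, from 0.038 for Ndufa6 to 0.14 for Ndufa3. Relative to the shared mean, Ndufb5 was highest in the knockout (0.17), followed by Ndufb8 (0.12) and Ndufs8 (0.11). Ndufa3 and Ndufv3 were lowest (-0.15 each). Ndufv3, Ndufab1 and Ndufa1 were lower in all 4 knockouts than in all 4 controls on this relative scale. The scale was looked at after the values were known. The shared mean was itself 0.24 higher in the knockouts, and before its removal the differences of these genes were 0.097, 0.11 and 0.12. A rise smaller than the shared one comes out as lower here, and no share of all tested genes was taken on this scale. These values rest on 8 libraries, in each of which all genes share 1 depth and 1 size factor, and carry no test.

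In the N module, the 3 core genes had log2 differences of 0.30 each. Ndufv1 (chr19:4007384-4012806), whose protein binds NADH and the flavin that takes its electrons, had 5993, 8099, 8240 and 8512 normalized counts in knockouts 5 to 8, against 6367, 6644, 6822 and 5148 in floxed controls 1 to 4. Its difference was 0.30 (95% interval 0.017 to 0.58). Knockout 5 was below 3 of the controls and the other knockouts were above all 4. Ndufs1 (chr1:63143596-63176833), the largest subunit, which holds iron-sulfur clusters, had 10844, 14848, 13330 and 14748 in the knockouts, against 11105, 12061, 11406 and 9005 in the controls. Its difference was 0.30 (0.028 to 0.57). Its exons overlap those of Eef1b2 on the other strand, and the strand setting of the counting is not given in the sources used here. Ndufv2 (chr17:66078638-66101559), which carries a further iron-sulfur cluster, had 4780, 6976, 6575 and 6507 in the knockouts, against 5484, 5356, 5169 and 4058 in the controls. Its difference was 0.30 (0.0086 to 0.60), and its groups overlapped in the same way. The limma adjusted p was 0.746 for each of these genes.

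The core genes of the Q module had a median difference of 0.29. Ndufs7 (chr10:80249121-80256794), which holds the last iron-sulfur cluster before ubiquinone, had 3050, 4050, 4282 and 4221 normalized counts in knockouts 5 to 8, against 3233, 3560, 3365 and 2577 in floxed controls 1 to 4. The difference of Ndufs7 was 0.29 (95% interval 0.0030 to 0.58), and the other knockouts lay above every control. Ndufs8 (chr19:3908863-3912774), which carries iron-sulfur clusters in the chain that leads to it, had 1632, 2612, 2639 and 2428 in the knockouts, against 1947, 1996, 1930 and 1377 in the controls. It had the largest difference of the core genes, at 0.35 (-0.017 to 0.72), and floxed control 4 stood furthest from the other controls. Ndufs3 (chr2:90894634-90904827), a structural subunit of the module, had 2143, 2951, 2878 and 2662 in the knockouts, against 2375, 2425, 2421 and 2022 in the controls. It had the smallest core difference, 0.20 (-0.049 to 0.44). In each of these genes knockout 5 was below 3 controls, and the adjusted p was 0.746 or above.

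**Figure D2:**
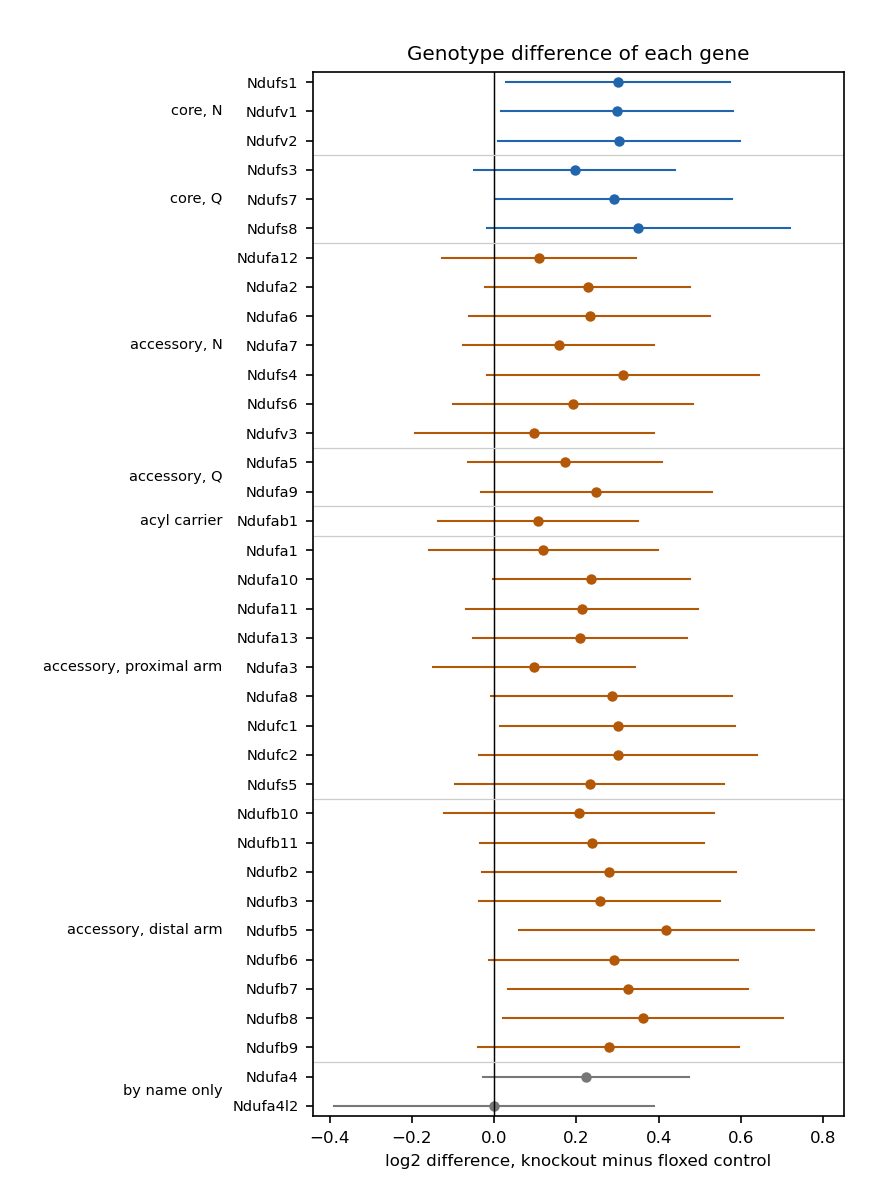
Points give the log2 difference, knockout minus floxed control, of each of 36 genes, and bars its 95% limma interval, with core subunits in blue, accessory subunits in orange and the genes included by name only in grey. All points lie right of 0 except Ndufa4l2 at -0.00089, and 8 intervals exclude 0.

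Of the 28 accessory genes, the 9 of the distal membrane arm had the highest median difference, 0.28, from 0.21 for Ndufb10 to 0.42 for Ndufb5. Ndufb5 (chr3:32736990-32751566), a single-pass membrane subunit, had 3911, 6052, 6160 and 5998 normalized counts in knockouts 5 to 8, against 4094, 4721, 4457 and 3181 in floxed controls 1 to 4. Its difference was 0.42 (SE 0.163, limma adjusted p = 0.746), the largest of the 37, and knockout 5 lay below 3 controls. Ndufb7, which is held in the intermembrane space by disulfide bonds, had 1540, 2350, 2218 and 2149 in the knockouts, against 1717, 1616, 1787 and 1413 in the controls. Ndufb8, a subunit often used to follow assembled complex I, had 3015, 4754, 4796 and 4431 in the knockouts, against 3374, 3508, 3604 and 2617 in the controls. Their differences were 0.32 (SE 0.133) and 0.36 (SE 0.155), again with the lowest knockout inside the range of the controls. Ndufb8 shares exons with the annotated gene Gm20538 on the same strand, and how such reads were counted is not known here. The other distal genes, Ndufb2, Ndufb3, Ndufb6, Ndufb9, Ndufb10 and Ndufb11, had differences of 0.28, 0.26, 0.29, 0.28, 0.21 and 0.24.

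The 9 accessory genes of the proximal membrane arm had a median difference of 0.23. Ndufc1, a small membrane subunit, had 2308, 3338, 2839 and 3298 normalized counts in knockouts 5 to 8, against 2583, 2379, 2571 and 1985 in floxed controls 1 to 4, a difference of 0.30 (SE 0.130). Ndufa10, whose fold is that of a nucleoside kinase, had 5928, 7433, 7402 and 7248 in the knockouts, against 6197, 6250, 6428 and 4935 in the controls, a difference of 0.24 (SE 0.108). In both genes 3 knockouts exceeded every control. Ndufa8, another disulfide-bonded subunit of the intermembrane space, had 1718, 2206, 2439 and 2337 in the knockouts, against 1875, 1951, 1891 and 1415 in the controls, a difference of 0.29 (SE 0.133). Ndufa1 and Ndufa3, both small membrane subunits, departed from the others. Ndufa1 (chrX:37187588-37191163) had 1257, 1632, 1709 and 1715 in the knockouts, against 1493, 1454, 1663 and 1195 in the controls, a difference of 0.12 (SE 0.127). Ndufa3 (chr7:3617373-3620327) had 2095, 2216, 2625 and 2532 in the knockouts, against 2301, 2463, 2292 and 1818 in the controls, a difference of 0.096 (SE 0.111). In these genes knockout 6 as well as knockout 5 lay within the range of the controls. Ndufa11, Ndufa13, Ndufc2 and Ndufs5 had differences of 0.21, 0.21, 0.30 and 0.23.

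The 7 accessory genes of the N module had a median difference of 0.19, below the 0.30 of the core genes of that module. Ndufs4, a late-joining subunit whose loss in mice causes a fatal encephalopathy, had 3084, 4706, 4194 and 4615 normalized counts in knockouts 5 to 8, against 3557, 3558, 3614 and 2577 in floxed controls 1 to 4, and the highest difference, 0.31 (SE 0.150). Ndufa2 and Ndufa6 were at 0.23 each, Ndufs6 at 0.19, Ndufa7 at 0.16 and Ndufa12 at 0.11. Ndufv3, which sits beside the NADH-binding core genes' products, had 1339, 1835, 1861 and 1808 normalized counts in knockouts 5 to 8, against 1673, 1755, 1680 and 1280 in floxed controls 1 to 4. Its difference was 0.097 (SE 0.132), and it had the largest p of any subunit gene. Without floxed control 4 it was -0.0057, the 1 subunit gene whose direction turned when a library was left out. The accessory genes of the Q module, Ndufa5 and Ndufa9, were at 0.17 and 0.25. Ndufab1, the mitochondrial acyl carrier protein, which also serves fatty acid synthesis, had 1299, 1800, 1765 and 1659 in the knockouts, against 1580, 1506, 1571 and 1360 in the controls, a difference of 0.11 (SE 0.110).

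Core and accessory genes had differences in the same direction, with a somewhat larger median in the core genes. All 7 core genes and all 28 accessory genes were higher in the knockout, with medians of 0.30 and 0.23. The accessory range held the core range inside it: 6 accessory genes lay above the core median and 8 below the lowest core gene. Of the 7 core genes, 6 lay above the accessory median. An unadjusted p under 0.05 was found in 4 of the 7 core genes and 4 of the 28 accessory genes. The mean log2 level of the core genes exceeded that of the accessory genes by 1.23, 1.24, 1.21 and 1.23 in knockouts 5 to 8, and by 1.16, 1.21, 1.16 and 1.15 in floxed controls 1 to 4. This gap averaged 1.228 ± 0.0121 in knockouts and 1.170 ± 0.0304 in controls (SD, n = 4 each), a difference of 0.058, and floxed control 2 lay above knockout 7. Floxed control 4 had the lowest gap of all 8 libraries, while knockout 5, though low for the genes themselves, lay between other knockouts. No test is given, because the genes were grouped with earlier results known.

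**Figure D3:**
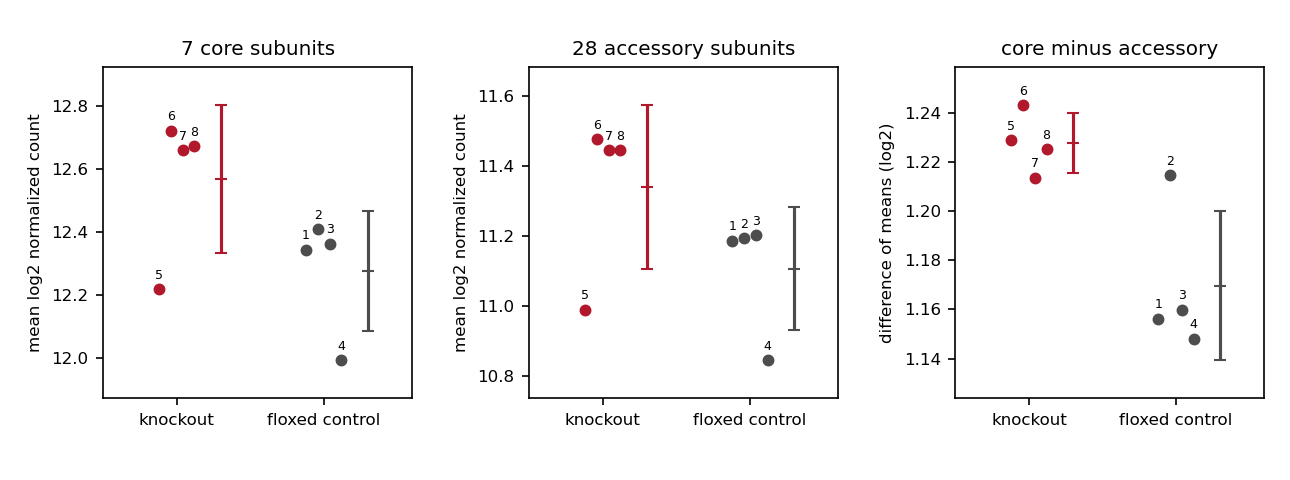
Points are libraries, numbered by replicate, with knockouts left of floxed controls, and bars give the mean and SD of 4 libraries. The first panels give the mean log2 normalized count of the 7 core and the 28 accessory genes, where knockout 5 lies below 3 controls, and the last gives their gap, which averages 1.228 in knockouts and 1.170 in floxed controls.

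Ndufa4 and Ndufa4l2 were described apart from the subunits. Ndufa4, now counted as a subunit of cytochrome c oxidase, had 6660, 9038, 8266 and 8822 normalized counts in knockouts 5 to 8, against 7494, 7457, 7099 and 5957 in floxed controls 1 to 4. Its difference was 0.22 (SE 0.114, limma adjusted p = 0.746), and its libraries had the same order at the low end as the subunits. Ndufa4l2, a related gene that hypoxia induces in cultured cells, had 81.1, 83.9, 68.9 and 60.5 in the knockouts, against 72.9, 81.8, 68.8 and 69.3 in the controls. Its difference was -0.00089 (SE 0.176, 95% interval -0.39 to 0.39), and neither knockout 5 nor floxed control 4 was the lowest of its group.

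Levels of different genes were compared as normalized counts per kb of the longest principal transcript of GENCODE. Ndufs8 had the lowest level of the core genes, 2316 per kb in knockouts and 1803 per kb in floxed controls, though with the shortest principal transcript of each gene the lowest was Ndufs3, at 2542 and 2209 per kb. The core median was 3968 per kb in knockouts and 3239 in controls, and the accessory median 3364 and 2750. Of the accessory genes Ndufb8 had the highest level in knockouts (6248 per kb) and Ndufa6, a partner of the acyl carrier protein, in controls (5114 per kb). Ndufa6 had 2765, 4064, 3730 and 3653 normalized counts in knockouts 5 to 8, against 3144, 3249, 3249 and 2427 in floxed controls 1 to 4, and its difference was 0.23. Ndufb2 had the lowest level, 284 and 232 per kb over a transcript of 4371 bases, with 909, 1361, 1375 and 1319 normalized counts in the knockouts, against 1055, 1136, 989 and 873 in the controls. Its exons overlap those of 3 annotated genes, Braf on the other strand, Gm16272 and Gm42420. Of these, 1 is on the same strand as Ndufb2, and how such reads were counted is not known here. With the shortest principal transcripts, Ndufb2 (455 bases) was at 2727 per kb in knockouts, Ndufv3 became the lowest accessory gene at 1081 and 1010 per kb, and Ndufc1 became the highest at 9351 and 7554 per kb. Ndufa4 was at 13437 and 11478 per kb, and Ndufa4l2 at 78.8 and 78.4.

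**Figure D4:**
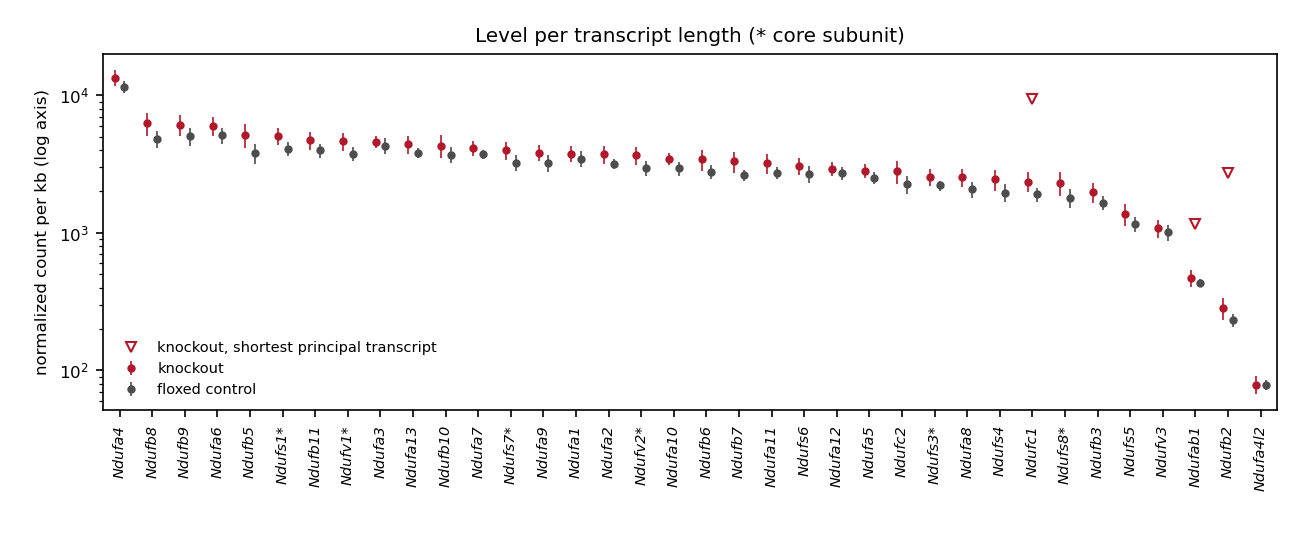
Normalized counts per kb of transcript on a log axis, as mean and SD of 4 knockout libraries (left point of each gene) and 4 floxed control libraries (right point), ordered by the knockout mean. Open triangles give knockout means over the shortest principal transcript where it is much shorter, and Ndufa4, at 13437 per kb in knockouts, stands above the rest.

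The remaining complex I genes were set beside the nuclear ones. Of the 7 subunits encoded by the mitochondrial genome, 6 were tested and all had higher knockout means, with a median of 0.17, but none had an unadjusted p under 0.05. Their mean log2 level was 13.43, 13.54, 13.61 and 13.49 in knockouts 5 to 8 and 13.45, 13.57, 13.23 and 12.91 in floxed controls 1 to 4. Knockout 5 and floxed control 4 were the lowest of their groups by this mean. In it ND3, at 7.11 to 31.7 normalized counts, weighs as much as the abundant genes. Floxed control 4 was the lowest control in each tested gene, but knockout 5 was the lowest knockout only in ND1, ND3 and ND6. In ND2, ND4 and ND5 knockout 5 was the highest of all 8 libraries. The summed counts of the mitochondrial genes, set mostly by the abundant ones, were 371736 in knockout 5 and 359362 to 384972 over all knockouts, against 273517 to 388177 in controls. ND2 had 68104 ± 3794 in knockouts and 59733 ± 8695 in controls (SD, n = 4 each), and ND1 174068 ± 21304 and 146327 ± 25783. Assembly factors, which build the complex and leave it, had 14 of 16 tested genes higher, a median of 0.23 and 4 genes at an unadjusted p under 0.05. Ndufaf1, a chaperone of early assembly, was at 931 ± 146 in knockouts and 741 ± 60.0 in controls, a difference of 0.32, and Acad9, an acyl-CoA dehydrogenase relative that works with it, at 859 ± 62.7 and 727 ± 58.0, a difference of 0.24. Ndufaf8, Coa1, Dmac1 and Dmac2 were not analysed here.

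The nuclear genes of the other respiratory complexes also had mostly higher knockout means, and no test was made between complexes. Complex II had 4 of 4 genes higher with a median of 0.29, complex III 9 of 9 with 0.33, complex IV 11 of 11 with 0.25 and complex V 16 of 17 with 0.25. The smallest p in each was found for Sdhb (0.40) and Sdhd (0.34) of complex II, Uqcrfs1 (0.37) and Cyc1 (0.40) of complex III, Cox7a1 (0.29) and Cox4i1 (0.30) of complex IV, and Atp5g3 (0.39) and Atp5f1 (0.35) of complex V. None passed adjustment. The 9 regulators of respiratory chain genes had a median of 0.023, from -0.20 for Yy1 to 0.65 for Esrrg, with 6 higher and 3 lower. Esrrg had 108, 267, 452 and 326 normalized counts in knockouts 5 to 8, against 212, 193, 200 and 85.3 in floxed controls 1 to 4. Knockout 5 and floxed control 4 were both lowest of their groups in Ppargc1a, Esrra and Esrrg, but not in the other regulators. Yy1, whose motif is shown above, had 1797 ± 189 normalized counts in knockouts and 2057 ± 160 in controls, a difference of -0.20, and Esrra, an orphan receptor that acts on respiratory genes, had 1349 ± 254 and 1108 ± 132, a difference of 0.27, both with an adjusted p of 0.746 or above.

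Other properties of the libraries moved with the subunit genes. Ttn, the giant sarcomere protein gene, took 13.9, 8.67, 8.34 and 9.22% of normalized counts in knockouts 5 to 8, against 12.8, 11.8, 12.2 and 14.9% in floxed controls 1 to 4, so the libraries low in complex I were high in Ttn. The members are short, with a median transcript of 908 bases, against 3008 for all tested genes. Among tested genes outside the list with transcripts from 600 to under 1000 bases, the median difference was 0.10 and 72.9% were higher, and their median deviation was -0.16 in knockout 5, 0.18, 0.074 and 0.14 in knockouts 6 to 8, and -0.16 in floxed control 4. Genes under 600 bases, a class that also holds members, followed this in part: their median difference was 0.048 and 55.5% were higher. Their median deviation was -0.090, 0.17, -0.0028 and 0.14 in knockouts 5 to 8, against 0.12, 0.081, -0.091 and -0.088 in floxed controls 1 to 4. Genes of 4000 bases or more ran the other way, with a median difference of -0.051. With the trend on length and GC content removed in each library, the median of the 37 genes was 0.18 instead of 0.24. The part of the Ttn share in the result was not tested.

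**Figure D5:**
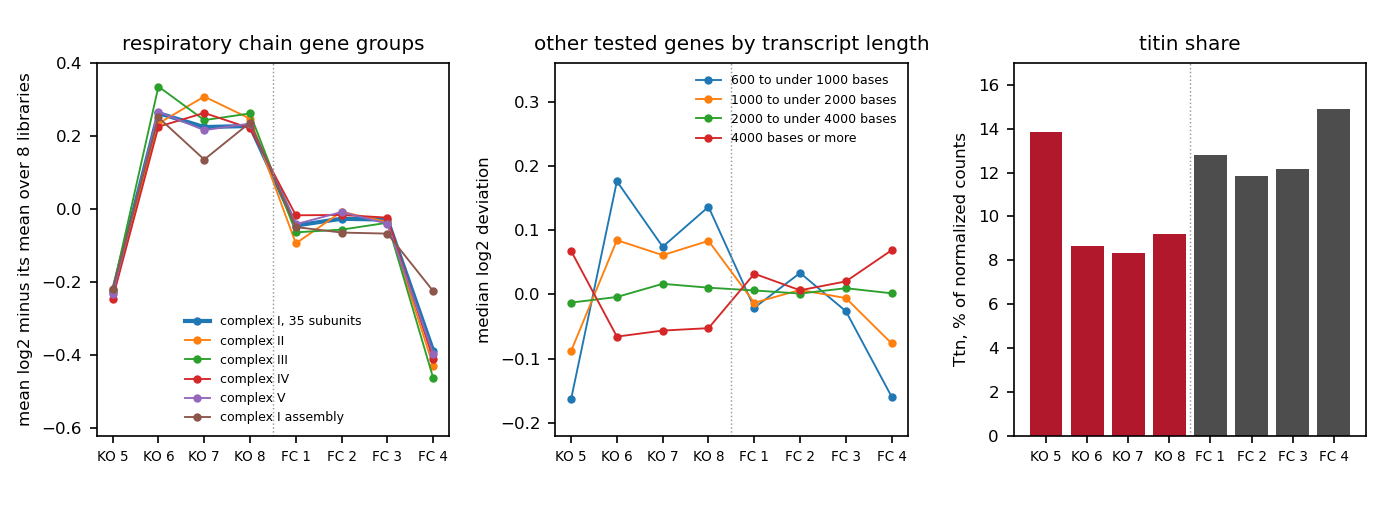
For each library, with knockouts left of floxed controls, the panels give the mean log2 level of respiratory chain gene groups minus its mean over 8 libraries, the median log2 deviation of other tested genes by transcript length, and the percentage of normalized counts from Ttn (bars from 0). Low points in KO 5 and FC 4 recur in the respiratory groups and, at about -0.16, in genes from 600 to under 1000 bases, where Ttn is 13.9 and 14.9%.

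Fibre and cell type markers were read as lists, and in bulk tissue fewer cells of a type and less RNA per cell cannot be told apart. Slow and oxidative fibre genes had 9 of 10 higher, with a median of 0.97. Their summed counts were 21013, 24554, 103838 and 29421 in knockouts 5 to 8, against 34191, 25819, 39696 and 11380 in floxed controls 1 to 4. In these sums, set mostly by Myh2 and Mb, only knockout 7 lay above every control. By the mean log2 level of the list, knockouts 5 to 8 were at 7.97, 8.49, 9.06 and 6.45. Floxed controls 1 to 4 were at 7.76, 6.64, 7.49 and 6.05, so knockouts 5, 6 and 7 were above every control by that measure. The high libraries differed between genes, and Myh2, the myosin of fast oxidative fibres, had 7087, 4005, 59055 and 4102 in knockouts 5 to 8, against 18567, 4421, 18357 and 4678 in floxed controls 1 to 4. Myl3 and Tnni1, slow muscle contractile genes, had differences of 2.89 and 2.26. Both were low in counts, Myl3 at 1.04 to 107 and Tnni1 at 2.61 to 293, where the highest Tnni1 value was that of knockout 6. Fast glycolytic genes had 5 of 9 higher (median 0.028), with the smallest p for Atp2a1 (-0.26) and Myh1 (0.39). Knockout 5 and floxed control 4 were both lowest of their groups in Mb, Myh1 and Tnni2, and in no other fibre gene listed. Macrophage markers had 8 of 8 higher, with a median of 0.54 and 5 at an unadjusted p under 0.05, led by Adgre1 (1.02) and C1qa (0.73), and summed counts of 2155 to 3903 in knockouts and 1309 to 2316 in controls. Endothelial markers had 6 of 8 higher (median 0.15, summed counts 8757 to 10536 and 7621 to 8911), led by Cldn5 (0.73) and Flt1 (0.28).

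Of the further markers, fibroblast genes had 4 of 6 higher, with Dcn at 0.15 and Lum at 0.24, and summed counts of 29643 to 69125 in knockouts and 30581 to 49447 in controls. Adipocyte genes had 3 of 5 tested higher, with Cfd at 0.44 and Adipoq at 0.30, and summed counts of 539 to 1859 and 219 to 2138, and Lep was at 0 in 2 knockouts and 3 controls. Erythroid genes had 5 of 5 higher, with Hbb-bs at 0.29 and Hba-a1 at 0.32, and summed counts of 1899 to 3178 and 1120 to 5357. Tendon genes had 0 of 5 higher, with Mkx at -1.01 and Fmod at -0.44, and summed counts of 3552 to 6550 and 3747 to 6335. Schwann cell genes had 5 of 5 higher, with Pmp22 at 0.12, and summed counts of 1300 to 1830 and 1194 to 1742. No gene of these lists passed adjustment, and their part in the differences of the complex I genes was not tested.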

How the data were processed

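The deposited table holds log2 values, and the values themselves show them to be log2(n + 1), n being the reads of a gene over a size factor of its library, unscaled for gene length. Values up to 200 reads were within 0.1 read of a whole number in 100% of cases. Tools listed in the submitters' processing notes are STAR, HTSeq, DESeq2, cutadapt and FastQC, with no versions, and the genome build is GRCm38. The kit was stranded, per the labels' protocols, while neither the strand setting nor the annotation of the counting is given in the sources used here. Exons of 17 of the 37 genes overlap another annotated gene.

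Genotype was tested in the 13141 genes whose mean normalized count reached 10, using limma 3.58.1 in R 4.3.3 (lmFit, trended eBayes), and p-values were adjusted over all of them by Benjamini-Hochberg, at a threshold of 0.05. SE and 95% intervals are those of the limma fit. Differences are of log2(n + 1) and so come out too small for low genes. Acot2 had an exact permutation test over 70 assignments. Lengths, GC content and positions, counted from 1, are from GENCODE M21 (GRCm38), and 99.6% of tested genes had both values. The members and lists were chosen with earlier results of these data known. Members are named, save 1 that is not reported here, with values in every library for the core genes, Ndufa4, Ndufa4l2, the 6 accessory genes with the smallest and the 3 with the largest p, and those highest and lowest per kb, and each further list gives its 2 genes with the smallest p, save 1 gene likewise left out. Ttn, Myh2, Myh4, Mb, Tnni2, Ppargc1a, Esrrg, ND3, ND4, ND5 and ND6 were named after their values were seen. Alternatives covered the pseudocount, filter, scaling, test, length and GC content, and the libraries. P-values measure the spread between these mice only.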

Additional observations from a re-analysis of the deposited data

Results flagged for a closer look

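Values were flagged where 1 library of a group lay far from the other 3, the gap to its nearest neighbour exceeding Dixon's critical share of the range of the group. Of 112 groups examined 36 were flagged, where chance would flag about 5.6. All 36 were low values, 21 of knockout 5 and 15 of floxed control 4, and since the genes vary together they are not separate events.

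In knockout 5 the log2 normalized counts flagged among core genes were 12.55 for Ndufv1 and 11.58 for Ndufs7. Among distal membrane arm genes they were 11.93 for Ndufb5, 11.56 for Ndufb8, 10.70 for Ndufb6, 9.83 for Ndufb2, 11.65 for Ndufb9 and 11.15 for Ndufb10. Among proximal membrane arm genes they were 12.53 for Ndufa10, 10.44 for Ndufc2, 12.07 for Ndufa13, 9.41 for Ndufs5 and 10.30 for Ndufa1. The accessory genes of the matrix arm flagged were Ndufa9 at 12.11, Ndufa5 at 11.00 and Ndufv3 at 10.39. The mean log2 level in knockout 5 was flagged at 11.24 for the 35 subunits, 12.53 for complex II, 12.22 for complex III, 12.19 for complex IV and 11.88 for complex V.

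In floxed control 4 the log2 normalized counts flagged were 10.43 for Ndufs8 and 10.98 for Ndufs3 among core genes. The accessory values were 12.27 for Ndufa10, 10.47 for Ndufa8, 11.33 for Ndufs4, 10.62 for Ndufa2, 11.85 for Ndufa9, 12.02 for Ndufa13, 11.25 for Ndufa6 and 10.32 for Ndufv3. The mean log2 level in floxed control 4 was flagged at 11.08 for the 35 subunits, 8.74 for the complex I assembly factors, 11.98 for complex III, 12.02 for complex IV and 11.72 for complex V.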

How the results depend on the processing

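No complex I gene passed adjustment under any of the 19 alternatives, and the lowest adjusted p of any of the 37 was 0.096, without knockout 5. The median difference of the 37 genes lay between 0.15 (without floxed control 4) and 0.36 (without knockout 5), and stayed positive throughout, as did the medians of core and accessory genes and the core minus accessory difference. The 8 genes at an unadjusted p under 0.05, a count examined after seeing the data, became 14 with no filter on low values, 16 with equal totals and 14 with equal upper quartiles. In those settings 1362 of 25596, 739 of 13141 and 803 of 13141 tested genes had such a p. With 1 library left out the member count ran from 0 to 32, and without both knockout 5 and floxed control 4 it was 31. Over all 13141 tested genes that count was 810, and it became 2200 without knockout 5, 367 without floxed control 4 and 1509 without both. The member count without overlap between groups ran from 0 to 34 with 1 library left out, and was 34 without both. Without knockout 5, 7.90% of all tested genes had every remaining knockout above every control. That share was not taken for the other settings with libraries left out, so the member counts there cannot be set against all tested genes. With fewer libraries, groups also fail to overlap more easily. Acot2 ran from -2.49 to -2.03 with 1 library left out (exact permutation p = 0.0571, the smallest possible) and was -2.44 without both (exact permutation p = 0.1, again the smallest possible). Of 702 differences of single genes under the alternatives 8 changed sign, 7 of them in Ndufa4l2, which was 0.040 with equal totals, 0.016 with equal totals without Ttn and the mitochondrial genome, 0.015 with equal upper quartiles and 0.0048 with voom, and ran from -0.067 to 0.088 with 1 library left out. Ndufv3 ran from -0.0057 to 0.21 with 1 library left out. The causes were not tested. The mouse number range as a covariate, chosen after seeing the data, left 6 of the 37 and 724 of all tested genes at an unadjusted p under 0.05. No paired analysis was possible because the replicate numbers run over the series and no number is shared between the groups. With 4 mice per group, the SE of a subunit gene was 0.105 to 0.167 on the log2 scale, which limits what could be detected.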
